A study of Homo sapiens with 6 samples.

Results

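RNA polymerase I (Pol I) and its initiation factors were followed here through 10 genes picked by name for their known role: the subunit genes POLR1A, POLR1B, POLR1C, POLR1D and POLR1E, and the factor genes UBTF, RRN3, TAF1A, TAF1B and TAF1C. All 10 were found among the 35615 gene symbols of the count table, and all 10 passed the filter on low counts that left 14543 genes for testing. The cells were K562, an established human leukaemia line that carries the BCR-ABL1 fusion kinase. Each culture of 5 M cells received 500 pmol of a synthetic RNA by nucleofection, either a copy of the strand hsa-miR-92a-1-5p (the miR92a group, 3 libraries) or a negative control mimic (the scramble group, 3 libraries). Imatinib, which inhibits BCR-ABL1, was added to both groups at 1 µM after 4 h and RNA was collected 24 h later, so the controls also carried the drug and cultures without it were not analysed here. A transfected mimic raises the strand above its natural level, and its level in the cells was not measured in these data.

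Pol I transcribes the repeated ribosomal DNA into a single precursor that is cut into most of the RNA of the ribosome, and its activity follows cell growth. UBTF coats the ribosomal DNA, the selectivity factor SL1 (TBP with the TAF1 proteins) marks its promoter, and RRN3 joins the polymerase to SL1 so that initiation can start. In proliferating leukaemia cells this pathway is known to run at a high rate, under the control of growth factor signalling and MYC.

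The mimic's strand and the places where its seed could pair with these transcripts are shown first, because they are a feature of the genes that the choice of names did not use. In the mature strand below (RefSeq, GRCh38.p14, chromosome 13, 91351324 to 91351346, plus strand) the capitals mark the seed, bases 2 to 8.
hsa-miR-92a-1-5p: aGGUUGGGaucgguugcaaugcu
A match of at least 7 bases means CCCAACC (7mer-m8), CCAACCA (7mer-A1) or CCCAACCA (8mer), read on the transcript strand only. In the longest 3′ UTR of a coding transcript per gene, 3 of the 10 genes held one, against 16.9% over the 12885 genes that were tested and had a 3′ UTR in the annotation. The 4 matches follow with the matching bases in capitals, 5′ to 3′ on the transcript (GENCODE release 29, GRCh38).
POLR1A, chr2:86026813-86026819, minus strand: tcctccacccaCCCAACCtctctgcctgg
POLR1A, chr2:86021129-86021135, minus strand: cacttgccttcCCCAACCcatgattcttg
POLR1D, chr13:27740077-27740083, plus strand: caaaatgcaccCCCAACCtaggatgattg
UBTF, chr17:44205939-44205945, minus strand: ctccctcctccCCCAACCccacagctggg

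All 4 were of the 7mer-m8 kind and none was an 8mer. The 3 genes that held them had the longest 3′ UTRs of the 10, with 7207 bases in POLR1A, 4342 in POLR1D and 2209 in UBTF, where the median over all tested genes was 1327. POLR1B held a 6mer, CCAACC, alone. When every annotated 3′ UTR was searched, 5 of the 10 genes had a match, now with POLR1B and TAF1C, against 23.0% of tested genes. Which 3′ ends K562 cells use was not measured, and a match of these letters is not a binding site. For the partner strand miR-92a-3p, whose sites contain TGCAAT, 4 of the 10 genes held a match of at least 7 bases (POLR1A, POLR1B, POLR1C and RRN3), against 20.1% of tested genes.

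The 6 libraries differed in depth. In 5 of them the total lay between 24.8 and 26 M counts, but miR92a 1 held 0.704 M, 36.0-fold less than the median of the others. In that library the counts of the 10 genes ran from 5 for POLR1C to 233 for UBTF, which gives a counting error of 44.7% and 6.55% of the value. Levels are given as CPM, counts scaled to a common library total, here with TMM, a factor that corrects the totals for a few dominant genes. Of 8 erythroid markers all 8 reached a mean of 1 CPM, and of 6 myeloblast and granulocyte markers 2 did, although the labels call the cells myeloblasts. MPO was at 0 in each library and ELANE reached at most 0.0382 CPM. The markers of T cells, B cells, monocytes and fibroblasts had 1 of 3 each at that level. Some of these sums lay lower with the mimic: 22.6 to 25.6 against 15 to 22.1 CPM for the myeloblast list and 3.08 to 5.1 against 1.36 to 2.18 CPM for the fibroblast list. CD33 made up most of the myeloblast sum, and its groups overlapped (15.8 to 20.7 against 14 to 18.2 CPM). Of the fibroblast markers COL1A1 lay lower (2.33 to 3.71 against 0 to 1.08 CPM) and COL1A2 overlapped. DCN lay higher (0.374 to 0.593 against 0.601 to 1.36 CPM). The value of 1.36 CPM is from miR92a 1, where 3 counts stand for 4.08 CPM. The part of these lists in the values that follow was not tested. In bulk RNA of this kind, fewer cells with a transcript and less of it per cell cannot be told apart.

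Whether the mimic changed the Pol I genes was tested with edgeR's quasi-likelihood test over all genes, at a Benjamini-Hochberg adjusted p of 0.05. None of the 10 passed in either direction, where 0.976% of all tested genes passed as lower and 0.433% as higher. A gene that did not pass may still have changed. At an unadjusted p under 0.05 there were 2, POLR1A and UBTF, beside 13.5% of all genes. DESeq2 called 0 of the 10, where it called 1.66% of all genes lower and 0.942% higher, and limma-voom called 0, with 1.25% and 0.639%. With the replicate number as a block, which compares libraries of the same number, POLR1A alone passed, as lower, where 6.70% of all genes passed as lower and 4.57% as higher. The log2 fold changes ran from -0.38 for TAF1B to 0.23 for TAF1C, with a median of -0.03 against -0.01 over all tested genes.

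**Figure D1:**
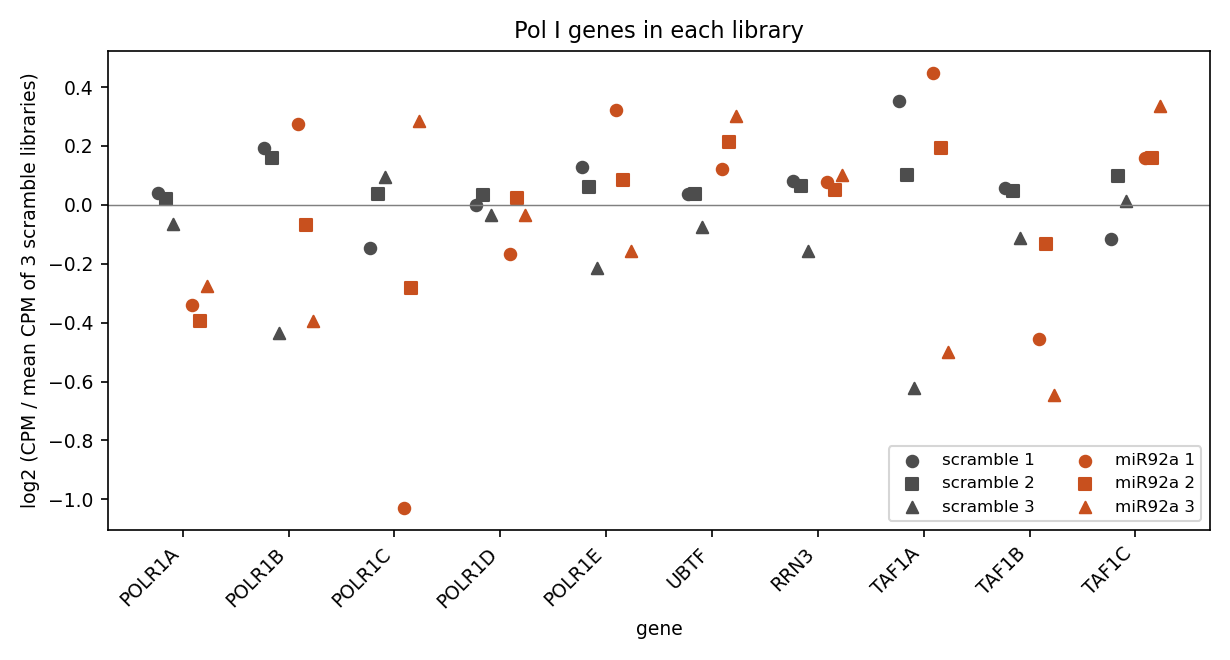
CPM of each Pol I gene in each library as a log2 ratio to the mean of the 3 scramble libraries (y axis), by gene (x axis), with grey for scramble, orange for miR92a and a marker shape for each replicate number. The orange points of POLR1A lie below all of its grey points and those of UBTF above, while for POLR1B, POLR1E and TAF1A the triangles of replicate 3 are the lowest in both groups.

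POLR1A encodes the largest subunit, which forms the catalytic centre together with POLR1B. It lies on chromosome 2 (86020216 to 86106155, minus strand, GRCh38). Its level was 199, 196 and 184 CPM in scramble 1, 2 and 3 and 152, 147 and 160 CPM in miR92a 1, 2 and 3. Every mimic library was lower than every control library. The group means were 193 ± 7.56 and 153 ± 6.37 CPM (SD, n = 3). The difference on the log2 scale was -0.33 ± 0.08 (standard error, edgeR adjusted p = 0.12). With the replicate block POLR1A fell by 0.33 ± 0.08 on the log2 scale (edgeR adjusted p = 0.013). That call was lost when both libraries numbered 1 were left out (-0.30 ± 0.10, edgeR adjusted p = 0.088).

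POLR1B encodes the other large catalytic subunit (chromosome 2, 112541915 to 112577150, plus strand). Its level was 90.0, 87.8 and 58.2 CPM in scramble 1, 2 and 3 and 95.2, 75.0 and 59.9 CPM in miR92a 1, 2 and 3. The ranges of the groups overlapped widely, and replicate 3 was the lowest in each. The log2 fold change was -0.11 ± 0.21, with a 95% interval from -0.58 to 0.36 that includes the value of POLR1A. It was -0.30 without scramble 3 and 0.05 without miR92a 3. A difference in response between the catalytic subunits was not shown and was not tested itself.

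POLR1C and POLR1D form the pair on which the enzyme is assembled, and both are also subunits of Pol III. POLR1D (chromosome 13, 27620742 to 27744237, plus strand) had 73.4, 75.0 and 71.6 CPM in the scramble libraries and 65.3, 74.5 and 71.6 CPM in the miR92a libraries. These values overlapped, and the log2 fold change of -0.04 ± 0.09 had a 95% interval from -0.25 to 0.18. POLR1D also held a 7mer-m8 match. POLR1C (chromosome 6, 43509702 to 43562419, plus strand) had 12.6, 14.3 and 14.8 CPM in the scramble libraries and 6.80, 11.4 and 16.9 CPM in the miR92a libraries. The lowest of these rests on 5 counts in miR92a 1, and the highest is also a mimic library. Its log2 fold change was -0.07 ± 0.23, and it moved to 0.03 ± 0.20 without miR92a 1, 0.07 ± 0.27 without miR92a 2 and -0.40 ± 0.22 without miR92a 3. Exons of POLR1C overlap those of XPO5 and YIPF3 on the opposite strand by up to 129 bases, and whether the counting used strand is not given in the sources used here.

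POLR1E encodes a subunit of the pair that helps Pol I initiate and elongate (chromosome 9, 37485935 to 37503697, plus strand). It had 58.3, 55.6 and 46.0 CPM in scramble 1, 2 and 3 and 66.7, 56.5 and 47.7 CPM in miR92a 1, 2 and 3. The groups overlapped, and replicate 3 was the lowest in each. The log2 fold change was 0.04 ± 0.15 (adjusted p = 0.95 by edgeR).

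UBTF, the factor that coats and bends the ribosomal DNA, was the most abundant of the 10 transcripts (chromosome 17, 44205033 to 44221626, minus strand). Its level was 299, 299 and 276 CPM in scramble 1, 2 and 3 and 317, 338 and 359 CPM in miR92a 1, 2 and 3. Each mimic library was above each control library, the opposite side from POLR1A. Both genes held a 7mer-m8 match. The means were 291 ± 12.9 and 338 ± 20.9 CPM (SD, n = 3), and the log2 fold change of 0.22 ± 0.09 did not pass (edgeR adjusted p = 0.30, and 0.078 with the block). Of the 15 other fits run, UBTF passed in 1, where replicate 3 had a term of its own, a fit added after the values were seen (0.23 ± 0.07, edgeR adjusted p = 0.037). In that fit POLR1A passed too (-0.33 ± 0.07, edgeR adjusted p = 0.0061).

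The ratio of POLR1A to UBTF counts needs no scaling between libraries, and it was chosen after their values were seen, so it is given without a test. It was 0.665, 0.656 and 0.667 in scramble 1, 2 and 3 and 0.481, 0.435 and 0.444 in miR92a 1, 2 and 3. The control libraries lay close together and the mimic libraries all lay below them. That order follows from POLR1A being lower and UBTF higher in every mimic library, so it adds no separate result.

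RRN3, the factor through which growth signals switch Pol I initiation (chromosome 16, 15060022 to 15094317, minus strand), had 64.1, 63.3 and 54.4 CPM in the scramble libraries and 63.9, 62.8 and 65.0 CPM in the miR92a libraries. Apart from the lower scramble 3 these were nearly level, and the log2 fold change was 0.08 ± 0.10 (95% interval -0.16 to 0.32). RRN3 has near-identical pseudogene copies with which reads can be shared, so its value is uncertain. RRN3P1, RRN3P2 and RRN3P3 together took 7.29% to 8.36% of the counts of RRN3 and these copies, apart from miR92a 1. There the share was 4.08%, on 2 counts of RRN3P3. The UBTF-like symbols reached at most 15 counts in a library, in UBTFL8.

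The 3 TAF1 genes encode subunits of SL1, which recognises the ribosomal DNA promoter. TAF1B (chromosome 2, 9843354 to 9934416, plus strand) had 23.3, 23.2 and 20.7 CPM in the scramble libraries and 16.3, 20.4 and 14.3 CPM in the miR92a libraries. The groups did not overlap, by a margin of less than 1 CPM, and the log2 fold change of -0.38 ± 0.17 did not pass (edgeR adjusted p = 0.38, and 0.10 with the block). It was -0.61 without miR92a 2 and -0.20 without miR92a 3. The mimic value in miR92a 1 rests on 12 counts.

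TAF1C (chromosome 16, 84177847 to 84187070, minus strand) lay on the other side, with 50.5, 58.6 and 55.3 CPM in the scramble libraries and 61.2, 61.3 and 69.1 CPM in the miR92a libraries. Its groups did not overlap, and the log2 fold change was 0.23 ± 0.11 (edgeR adjusted p = 0.40, and 0.22 with the block). TAF1A (chromosome 1, 222557902 to 222589933, minus strand) had 15.3, 12.8 and 7.78 CPM in the scramble libraries and 16.3, 13.7 and 8.46 CPM in the miR92a libraries. The groups overlapped almost entirely, with replicate 3 the lowest in each, and the log2 fold change of -0.03 ± 0.31 became 0.10 ± 0.16 with the block. Without 1 library it lay between -0.27 (without scramble 3) and 0.25 (without miR92a 3).

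Of the 10 genes 2 lay entirely lower in the mimic group (POLR1A and TAF1B) and 2 entirely higher (UBTF and TAF1C), where 11.5% of all tested genes lay entirely lower and 9.73% entirely higher. The summed level of the 10 transcripts was 885, 885 and 789 CPM in scramble 1, 2 and 3 and 861, 860 and 871 CPM in miR92a 1, 2 and 3. The group means of 853 ± 55.0 and 864 ± 6.23 CPM (SD, n = 3) differed by less than the spread of the control libraries.

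**Figure D2:**
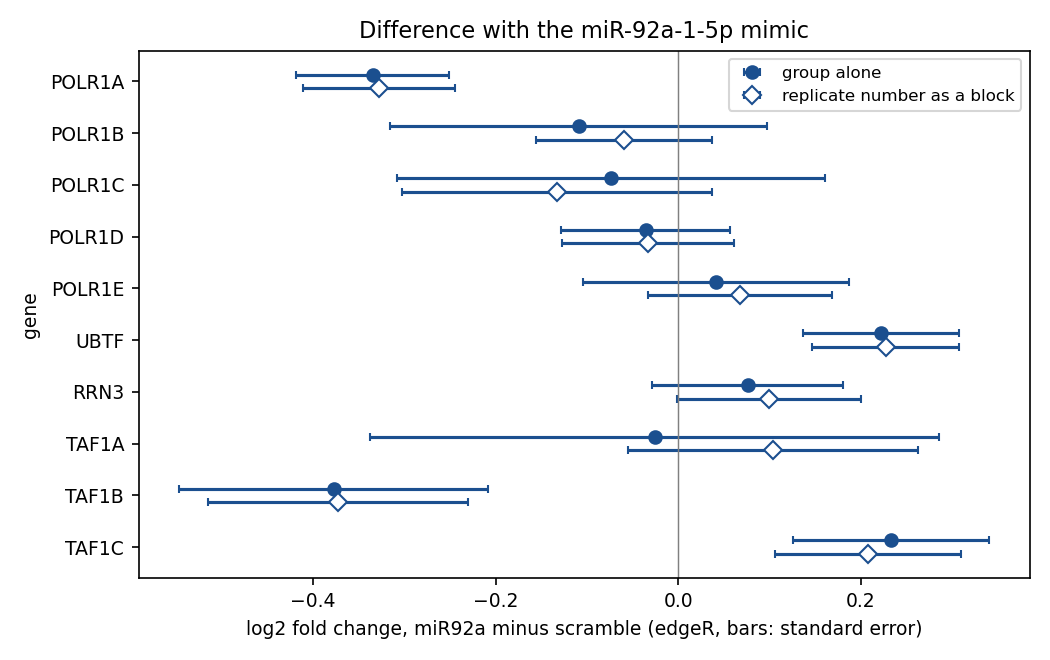
Log2 fold change of each Pol I gene with the mimic (x axis, miR92a minus scramble, bars are the standard error) from edgeR without the replicate block (filled) and with it (open), by gene (y axis). POLR1A and TAF1B lie furthest to the left and UBTF and TAF1C furthest to the right in both fits, and the bars of POLR1B and TAF1A shorten with the block.

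Levels can be compared between genes only per transcript length, here as CPM per kb of the longest annotated transcript. UBTF stood first in the scramble group, at 58.3 ± 2.57 CPM per kb (SD, n = 3), and POLR1E followed with 23.9 ± 2.91. RRN3 (16.1 ± 1.44), POLR1D (15.97 ± 0.37), POLR1B (15.5 ± 3.52) and POLR1A (15.1 ± 0.59 CPM per kb) came next, and neighbours in this order had overlapping ranges. The 3 TAF1 genes among the 10 were lower, with 11.8 ± 0.88 for TAF1C, 9.38 ± 0.61 for TAF1B and 6.08 ± 1.94 CPM per kb for TAF1A. The SL1 genes outside the 10 were not compared per kb. POLR1C came last at 5.68 ± 0.49 CPM per kb and overlapped TAF1A.

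In the miR92a group 8 of the 10 genes held the same place, while TAF1C (13.8 ± 0.98 CPM per kb) stood above POLR1A (11.99 ± 0.50). The order depends on the length taken. With the summed length of all exons POLR1D dropped to 6.54, POLR1C to 2.50 and TAF1B to 5.51 CPM per kb, and POLR1D moved from the fourth to the seventh place. With the longest protein-coding transcript, a length that was not planned, POLR1C (6.55 CPM per kb) stood above TAF1A (6.08) in the scramble group. TAF1C then had 14.1 CPM per kb. The 3′ UTR of POLR1A alone makes up 7207 of its 12749 bases.

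**Figure D3:**
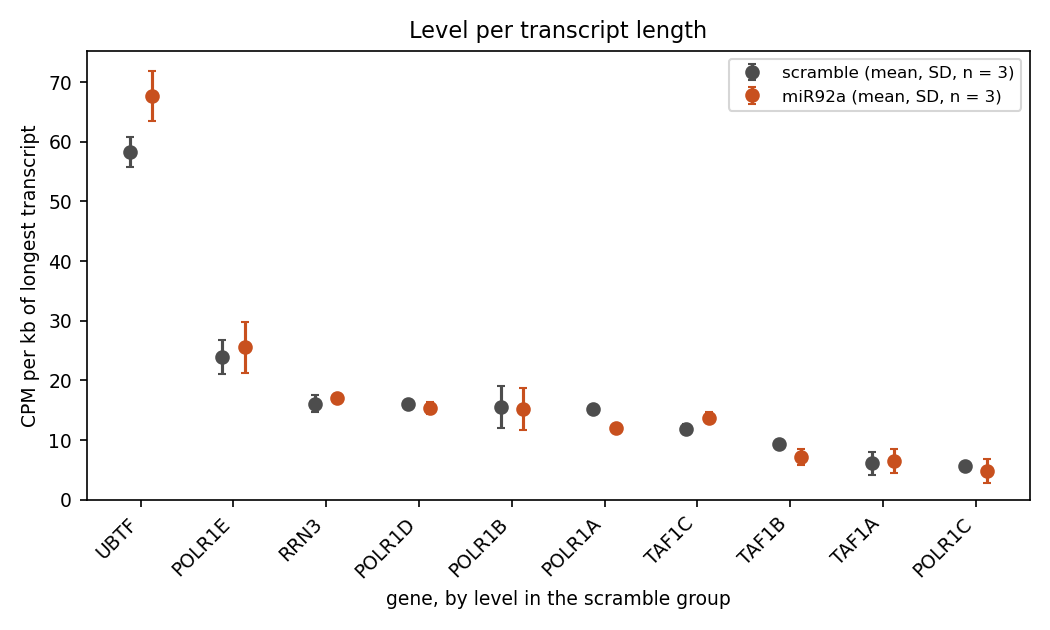
CPM per kb of the longest annotated transcript for each Pol I gene (y axis, points are the mean and bars the SD of 3 libraries), ordered by the scramble group (x axis). UBTF stands apart at the top, RRN3, POLR1D, POLR1B and POLR1A lie together, and POLR1C is last.

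Several of the genes differed more by replicate number than by mimic. A comparison of replicate 3 with replicates 1 and 2, with the group as a term, was added after the values were seen, and the labels do not say what libraries of the same number share. TAF1A was lower in replicate 3 by -0.80 ± 0.14 on the log2 scale (edgeR adjusted p = 0.0014), POLR1B by -0.51 ± 0.09 (adjusted p = 0.0012) and POLR1E by -0.30 ± 0.08 (adjusted p = 0.020). In all 3 of the 10 genes passed as lower and none as higher, where 12.8% of all tested genes passed as lower and 11.8% as higher. POLR1A and UBTF were level in this comparison, both at -0.00, with standard errors of 0.07. TAF1B (-0.30 ± 0.12) and POLR1C (0.36 ± 0.15) did not pass.

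Other transcripts moved with replicate 3 too. RNA5-8SP6, a ribosomal RNA pseudogene, had 84.7 and 160.6 CPM in scramble 3 and miR92a 3 and 15.8 to 19.9 CPM in the other 4 libraries. Of the 5 ribosomal RNA symbols found it was the only one with counts, so the product of Pol I was not measured here. What the counts of this pseudogene stand for was not tested. The embryonic globin HBE1 had 6260 and 6680 CPM in replicate 3 and 2550 to 3180 CPM elsewhere, and MYC, also picked after its values were seen, was lower in replicate 3 by -0.38 (edgeR adjusted p = 0.0036). Their part in the replicate difference of the Pol I genes was not tested.

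**Figure D4:**
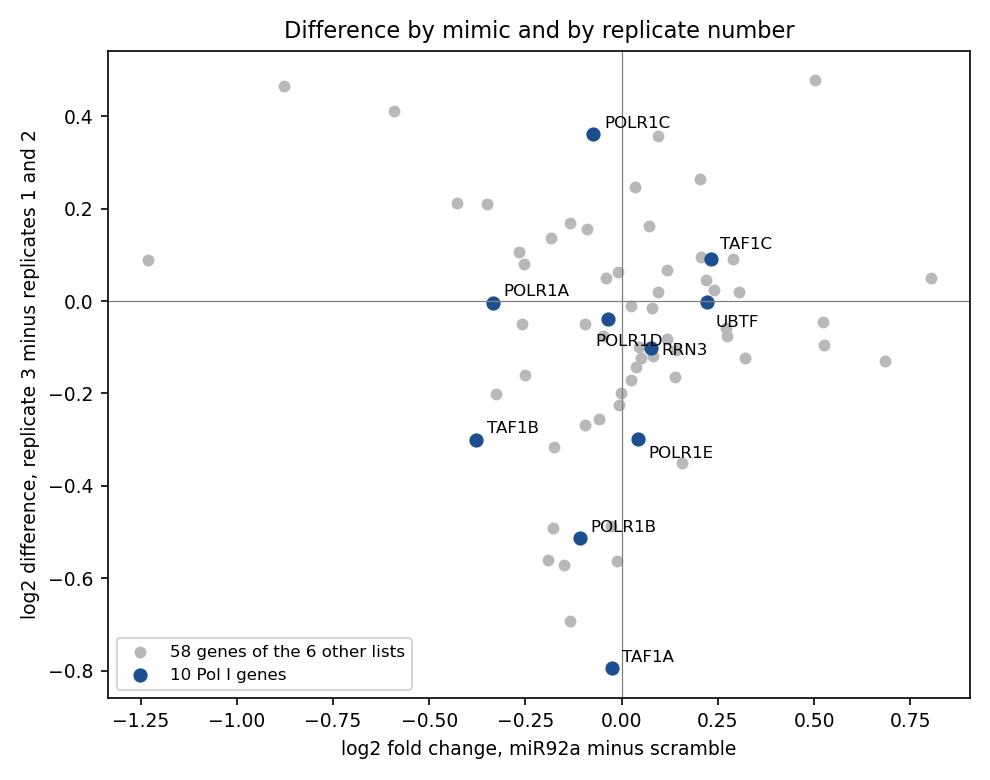
Log2 fold change with the mimic (x axis) against the log2 difference of replicate 3 from replicates 1 and 2 (y axis) for the 10 Pol I genes (blue) and the 58 genes of 6 other lists (grey). POLR1B, POLR1E and TAF1A lie near 0 on the x axis and below 0 on the y axis, while POLR1A and UBTF lie apart on the x axis and at 0 on the y axis.

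Of the 6 other Pol I genes measured, none passed in edgeR, with 2 at an unadjusted p under 0.05, beside 13.5% of all genes. DESeq2 called 1 as higher (TBP), beside 0.942% of all genes, and limma-voom called 0. The median log2 fold change of the 6 was -0.03. TBP, the TATA-binding subunit that SL1 shares with the Pol II and Pol III machinery, was named after its values were seen. It had 43.3, 44.1 and 38.0 CPM in scramble 1, 2 and 3 and 63.9, 58.1 and 60.3 CPM in miR92a 1, 2 and 3, with no overlap. Its log2 fold change was 0.52 ± 0.11 (edgeR adjusted p = 0.062), and with the block TBP rose by 0.54 ± 0.11 (edgeR adjusted p = 0.0020).

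TAF1D, a further SL1 subunit and the most abundant of these genes, had 186 ± 10.2 and 155 ± 15.96 CPM (SD, n = 3; log2 fold change -0.26 ± 0.10, edgeR adjusted p = 0.33). Of the 5 SL1 genes, 2 lay entirely higher with the mimic (TBP and TAF1C, beside 9.73% of all genes), 2 entirely lower (TAF1B and TAF1D, beside 11.5%), and TAF1A overlapped. TWISTNB, now named POLR1F, encodes a stalk subunit of Pol I and had 60.9 ± 11.5 and 63.2 ± 16.7 CPM. In the comparison of replicate 3 with the others TWISTNB (-0.56 ± 0.09, edgeR adjusted p = 4.9e-04) and CD3EAP, the partner subunit of POLR1E now named POLR1G (-0.57 ± 0.11, adjusted p = 0.0026), were lower. CD3EAP, like TBP, was named after its values were seen. These were 2 of the 6 genes of the list, beside 12.8% of all genes. ZNRD1, now named POLR1H, a small Pol I subunit, was at -0.08 ± 0.10 and did not pass. In the other lists POLR3D (-0.56), SNAPC1 (-0.69) and MYBBP1A (-0.49), a listed Pol I regulator, were also lower in replicate 3. Genes outside Pol I were thus among those that differed, in both directions. Of 11 Pol III-specific subunits 1 passed as lower and 0 as higher, and of 16 Pol III factors 3 and 2. Of 13 regulators 3 passed as lower and 1 as higher, and of 7 Pol II-specific subunits 0 and 2. The shares of all genes were 12.8% and 11.8%. ZNRD1, POLR3D, SNAPC1 and MYBBP1A were named after their values were seen.

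The related machinery offers a comparison. None of the 5 subunits shared by all 3 polymerases passed (edgeR, 0 at an unadjusted p under 0.05, 0 by DESeq2 and limma-voom), and POLR2E and POLR2L had log2 fold changes of 0.22 ± 0.11 and 0.20 ± 0.14. None of the 7 Pol II-specific subunits passed (edgeR, 1 at an unadjusted p under 0.05, beside 13.5% of all genes, 0 by DESeq2 and limma-voom). POLR2B was at 0.09 ± 0.15 and POLR2D at 0.04 ± 0.10. POLR2A, the largest Pol II subunit, named after its values were seen, had 8.79, 10.9 and 12.4 CPM in scramble 1, 2 and 3 and 4.08, 4.70 and 7.34 CPM in miR92a 1, 2 and 3. Its groups did not overlap, and the log2 fold change was -0.88 ± 0.26 (edgeR adjusted p = 0.17). The value in miR92a 1 rests on 3 counts, a counting error of 57.7%. With the block POLR2A fell by 0.99 ± 0.19 on the log2 scale (edgeR adjusted p = 0.0016), as 1 of the 7 genes, beside 6.70% of all genes. The medians of the lists were 0.12 and 0.04, beside -0.03 for the 10 Pol I genes.

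Of the 11 Pol III-specific subunits 1 passed as lower and 0 as higher, beside 0.976% and 0.433% of all genes. POLR3G, a subunit of Pol III known from stem and cancer cells, with the paralog POLR3GL, had 16.2, 13.7 and 13.6 CPM in scramble 1, 2 and 3 and 9.52, 4.77 and 6.90 CPM in miR92a 1, 2 and 3. It fell by 1.23 ± 0.23 on the log2 scale (edgeR adjusted p = 0.046), on 7 counts in miR92a 1. The longest 3′ UTR of POLR3G held 1 match of at least 7 bases to the mimic's seed. At least 1 was held by 16.9% of tested genes with a 3′ UTR. In the lists outside the 10, it was also held by TAF1D, POLR2F, GTF3C1, GTF3C4, GTF3C5, SNAPC3, KDM2A and ERCC6, all listed here for the match. None of these passed without the block. GTF3C5 fell with it (-0.45 ± 0.09, edgeR adjusted p = 0.0028). In TAF1D, which lay entirely lower with the mimic, the match was an 8mer. The part of the match in the fall of POLR3G was not tested. The paralog POLR3GL, named here for that reason, had 47.8 ± 3.07 and 49.2 ± 4.15 CPM in the scramble and miR92a groups (SD, n = 3). Its log2 fold change was 0.02 ± 0.11. In these cells the CPM of POLR3GL was above that of POLR3G, not scaled by transcript length. The call of POLR3G was lost in each edgeR fit that left out 1 library (adjusted p 0.056 to 0.23) and with total counts in place of TMM (0.058), and its log2 fold change lay between -1.42 and -0.98 without 1 library. The call was kept by DESeq2 (adjusted p = 0.0058), limma-voom (0.031), the edgeR block (1.7e-04) and that block without the libraries numbered 1 (7.4e-04). With the block POLR3F, another Pol III subunit, named after its values were seen, also passed. It had 14.6, 13.9 and 14.5 CPM in scramble 1, 2 and 3 and 24.5, 20.5 and 19.4 CPM in miR92a 1, 2 and 3, with no overlap. It had a log2 fold change of 0.52 ± 0.14 (edgeR adjusted p = 0.14) and rose by 0.53 ± 0.14 with the block (edgeR adjusted p = 0.021). The blocked counts were thus 1 lower and 1 higher of 11, beside 6.70% and 4.57% of all genes.

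Of the 16 Pol III factors none passed in edgeR, with 4 at an unadjusted p under 0.05, beside 13.5% of all genes. DESeq2 called 1 as lower (GTF3C2), beside 1.66% of all genes, and limma-voom called 0. MAF1, the repressor of Pol III, had 0.12 ± 0.09 and GTF3C1 had -0.04 ± 0.08. With the block 3 fell, BDP1, GTF3C2 and GTF3C5, and 1 rose, SNAPC2, of 16, beside 6.70% and 4.57% of all genes. All 4 were named after their values were seen, and BDP1 lost its call when both libraries numbered 1 were left out (edgeR adjusted p = 0.060). BDP1 is part of the Pol III initiation factor TFIIIB and the GTF3C genes encode TFIIIC, which binds the promoters of transfer RNA genes. GTF3C2 fell by 0.62 ± 0.09 on the log2 scale (edgeR adjusted p = 5.4e-05).

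Among 13 regulators of ribosomal DNA chromatin and of Pol I none passed in edgeR, with 6 at an unadjusted p under 0.05, beside 13.5% of all genes. DESeq2 called 1 as higher (TCOF1), beside 0.942% of all genes, and limma-voom called 0. NCL, which encodes the nucleolar protein nucleolin, had 1157 ± 124 and 1444 ± 20.7 CPM (SD, n = 3; log2 fold change 0.32 ± 0.10, edgeR adjusted p = 0.19), and every mimic library was above every control library. With the block NCL rose by 0.33 ± 0.08 (adjusted p = 0.0082). DDX21, a nucleolar RNA helicase, had -0.18 ± 0.13. With the block 3 of the 13 rose (NCL, TCOF1 and SIRT7, beside 4.57% of all genes) and 1 fell (BAZ2A, beside 6.70%). SIRT7, a nucleolar deacetylase named after its values were seen, and BAZ2A lost their calls when both libraries numbered 1 were left out (edgeR adjusted p = 0.057 and 0.079). TCOF1, the treacle protein that works with UBTF on ribosomal DNA and was named after its values were seen, had 46.6 ± 5.90 and 86.4 ± 28.4 CPM and rose by 0.80 ± 0.13 with the block (edgeR adjusted p = 2.2e-04). BAZ2A, which silences ribosomal DNA copies and was likewise named afterwards, fell by 0.27 ± 0.08 (adjusted p = 0.027).

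The genes whose profile over the 6 libraries lay closest to that of POLR1A, among 7783 others with a mean of at least 20 CPM, were BRPF3, ZNFX1 and ZDHHC14, with root mean square differences of 0.03, 0.04 and 0.05 in centred log2 CPM. None of the other Pol I genes was among them. POLR1C, TAF1A and TAF1B had means under 20 CPM over the 6 libraries and could not appear. With so few genes printed of 7783, the absence of the rest does not show how alike they were. The profile of the summed 10 genes lay closest to RPS3, UPF1 and PAICS (0.02, 0.02 and 0.03).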

How the data were processed

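The values are expected counts, estimated per gene symbol with kallisto by the authors per the labels' protocols, deposited as whole numbers and not scaled. GRCh38 is the build in the submitters' processing notes. The kallisto version, transcript annotation, strand and step to genes are not given in the sources used here. All 6 sample columns were used, matched by the names in the labels. Genes were filtered with filterByExpr, scaled by TMM and tested in R 4.3.3 with edgeR 4.0.16 (quasi-likelihood F-test on group, Benjamini-Hochberg over 14543 genes, threshold 0.05). The standard error is the log2 fold change divided by the square root of F, and log2 profiles used a prior count of 2. The code was tested on simulated data. With group alone it recovered 37.3% of genes changed 1.5-fold and 89.6% of genes changed 2-fold. Smaller changes were not simulated, nor was a difference between replicate numbers. The labels call the cultures biological replicates but say no more of their source.

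Same-numbered libraries deviated together (correlation of deviations from group means 0.15, 0.16 and 0.42 over the tested genes), and a fit blocked on that number is therefore printed where it changes a call. Among the 4829 most abundant genes (mean count 1000 or more) scramble 1 correlated with miR92a 2 at 0.52 and with miR92a 1 at 0.37.

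The 10 genes and the lists were chosen with earlier results of these data known. All 10 are named, and from each other list up to 4 genes past the threshold or, where none passed, the 2 most abundant. Further names are marked as such. Seed matches and lengths came from GENCODE 29, and the mature strand from RefSeq (GRCh38.p14). Alternatives were DESeq2 1.42.0, limma-voom (3.58.1), other scalings and filters, the block, and each library left out. Python 3.11.15, pandas 2.3.3 and matplotlib 3.10.9 were also used.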

Additional observations from a re-analysis of the deposited data

How the results depend on the processing

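Under 14 alternatives for each gene, 139 of 140 values for the 10 Pol I genes stayed on the same side of the threshold, the exception being POLR1A with the replicate block. The number called lower was 1 with the replicate block and 1 with replicate 3 as a term, where the number called higher was also 1 (UBTF). It was 0 and 0 without any 1 library. The median log2 fold change ran from -0.06 to 0.06 without 1 library and was 0.02 with the block. Under these 14, 5 genes kept their sign (POLR1A, UBTF, RRN3, TAF1B and TAF1C). Blocked counts over all genes were 975 lower and 664 higher against 142 and 63. DESeq2 called 242 and 137, the term for replicate 3 gave 1262 and 976, and fits without 1 library gave 56 to 148 and 14 to 53. Depth in miR92a 1, where 3 counts stand for 4.08 CPM, limits POLR1C, TAF1A and TAF1B most.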
